A study of Mus musculus with 6 samples.

Results

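The macrophage surface receptors of the spleen are described here as 9 genes in the spleens of mice injected with cadmium chloride or saline: Mrc1, Marco, Vcam1, Ms4a6d, Siglec1, Msr1, Cd68, Csf1r and Timd4. They were chosen by an earlier comparison of these arrays, in which Mrc1 and Marco differed in opposite directions between 10 µmol/kg CdCl2 and saline. The values of that contrast therefore describe the members and carry no test. Every probe that the platform annotation assigns to a member was taken, which gave 14 of the 45281 probes on the array, for 8 of the 9 genes. Cd68, a glycoprotein of macrophage lysosomes and endosomes, had no probe by symbol or by gene identifier. Of the 8 genes, 7 were above background often enough to enter the fit of 13559 genes and unnamed probes, and Msr1 was not.

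The spleen holds several macrophage populations with separate addresses. Red pulp macrophages engulf worn red cells and recycle their iron, and depend on the transcription factor Spi-C. They carry VCAM-1, an adhesion molecule that binds integrin α4β1, and the mannose receptor CD206 encoded by Mrc1, which takes up mannosylated glycoproteins. Macrophages of the marginal zone face the blood that enters around the white pulp and carry the scavenger receptor MARCO, which binds bacteria and particles. Metallophilic macrophages on the inner rim of that zone carry sialoadhesin, the sialic acid-binding receptor encoded by Siglec1. Csf1r, the receptor for the growth factors CSF-1 and IL-34, is used by macrophages of all these places and by monocytes. Timd4 encodes a phosphatidylserine receptor that tethers dying cells, and Msr1 the class A scavenger receptor for modified lipoproteins. Ms4a6d encodes a 4-span membrane protein of monocytes and macrophages.

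The animals were ICR mice, an outbred stock, aged 28 days, and all groups received a single subcutaneous injection in 200 µL of saline 24 h before the spleen was taken. The groups were saline alone, CdCl2 at 5 µmol/kg and CdCl2 at 10 µmol/kg, with 2 bead arrays of whole-spleen total RNA in each. The labels give 7 to 8 animals per group and do not state whether an array holds 1 animal or a pool, so p-values here cover only how far these arrays differ, which can be technical spread alone. In whole spleen, fewer cells of a type and less RNA per cell cannot be told apart. Each array detected between 16265 and 18561 probes, with the most on saline array 1.

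The arrays also differed in signal of pancreatic acinar cells, the digestive-enzyme cells of the gland that touches the spleen. The 26 measured genes of an acinar list of 31 averaged 4.77 and 12.10 on the log2 scale on the saline arrays, 11.65 and 10.81 on the 5 µmol/kg arrays, and 4.95 and 11.45 on the 10 µmol/kg arrays. Saline array 1 and 10 µmol/kg array 1 are called the arrays of low acinar signal below, and 7 and 11 of the 26 genes were detected on them. The other 4 arrays detected 25 or 26. Differences between 10 µmol/kg and saline are therefore also given between the arrays of low acinar signal and between those of high acinar signal, with 1 array on each side. Both 5 µmol/kg arrays were high, so for 5 µmol/kg against saline only the high arrays form such a pair. A fit with the mean acinar level as a covariate is given with the counts below, and the part of acinar RNA in the differences was not tested beyond these values.

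The stretches in front of Mrc1 and Marco are shown because these are the genes whose signals differed in opposite directions. Both are RefSeq sequences of the build GRCm38.p6 that run from 250 bases before to 50 bases after the start of the gene, 5′ to 3′ on the coding strand. Capitals mark GAGGAA or its reverse complement TTCCTC, a core of the sites bound by PU.1, the Spi1 product that macrophages need.
Mrc1, chr2:14229164-14229463, plus strand: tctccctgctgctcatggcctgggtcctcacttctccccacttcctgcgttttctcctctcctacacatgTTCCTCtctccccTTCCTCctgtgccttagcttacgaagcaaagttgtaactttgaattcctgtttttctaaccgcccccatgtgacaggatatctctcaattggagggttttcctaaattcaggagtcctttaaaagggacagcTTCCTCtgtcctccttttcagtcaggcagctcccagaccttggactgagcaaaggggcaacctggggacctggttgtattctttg
Marco, chr1:120504975-120505274, minus strand: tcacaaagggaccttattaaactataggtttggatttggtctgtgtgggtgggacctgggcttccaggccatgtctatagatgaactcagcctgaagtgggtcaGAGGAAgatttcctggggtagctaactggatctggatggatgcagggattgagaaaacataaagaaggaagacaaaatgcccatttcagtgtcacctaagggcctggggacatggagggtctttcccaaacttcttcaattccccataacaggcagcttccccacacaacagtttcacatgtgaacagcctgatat
Mrc1 held 3 matches, at −180, −167 and −35 from the start, all on the reverse strand. Marco held 1, at −146 on the forward strand. Of 32851 mouse promoter windows of this length, 28.3% held at least 1 match on either strand, so a match is common and does not show a site that is used. The palindrome CACGTG, bound by the lysosomal factors MITF and TFE3, was in neither window, and 7.15% of all windows held it. TGCTGA, part of the sites bound by MAF factors, on either strand, was also in neither, against 19.5% of all windows. The promoter table matched 4 of the 9 members, and the other two, Cd68 and Timd4, are not shown since Cd68 had no probe and the 3 groups of Timd4 overlapped.

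The red pulp receptor Mrc1 stood highest at the higher dose. Its deposited signal, a bead intensity on a linear scale, was 511 and 605 on the saline arrays, 694 and 870 on the 5 µmol/kg arrays, and 925 and 1205 on the 10 µmol/kg arrays. The 3 groups did not overlap, and every array of a dose lay above every array of the dose before it. As normalised log2 levels the means were 9.16 ± 0.17, 9.63 ± 0.23 and 10.06 ± 0.27 for saline, 5 and 10 µmol/kg (SD, n = 2 each). The difference of 5 µmol/kg from saline was 0.47 ± 0.26 (SE) on the log2 scale, a fold of 1.39 with a 95% confidence interval from 0.897 to 2.14 (limma, adjusted p = 0.554). Neither this nor the step between the doses passed the test: 10 against 5 µmol/kg differed by 0.43 ± 0.26 (limma, adjusted p = 0.981), and by 0.25 to 0.62 with 1 array at a time left out. Between 10 µmol/kg and saline, the contrast that chose the gene, the log2 difference was 0.91, a fold of 1.87. It was 0.84 between the arrays of low acinar signal and 0.97 between those of high acinar signal.

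Vcam1, the other red pulp receptor, did not share the step at 5 µmol/kg. Its brightest probe read 5589 and 4814 on the saline arrays, 3792 and 5695 on the 5 µmol/kg arrays, and 6050 and 7096 on the 10 µmol/kg arrays. The 5 µmol/kg arrays lay on either side of both saline arrays, and both 10 µmol/kg arrays lay above all others. The log2 difference was −0.16 ± 0.28 (SE) for 5 µmol/kg against saline (limma, adjusted p = 0.852) and 0.49 ± 0.28 for 10 against 5 µmol/kg (limma, adjusted p = 0.981). Its intervals were wide: 0.561 to 1.43-fold for the first and 0.882 to 2.25-fold for the second. Leaving out 1 array at a time gave −0.45 to 0.13 for the first and 0.20 to 0.79 for the second. Between 10 µmol/kg and saline the log2 difference was 0.34, with 0.11 between the arrays of low acinar signal and 0.56 between those of high acinar signal. A dimmer Vcam1 probe was detected on 4 of the 6 arrays, with 5.11 and 16.3 on saline, 20.6 and 7.07 at 5 µmol/kg, and 15.3 and 43.3 at 10 µmol/kg. Its groups overlapped. The remaining 2 Vcam1 probes were not above background on any array.

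**Figure D1:**
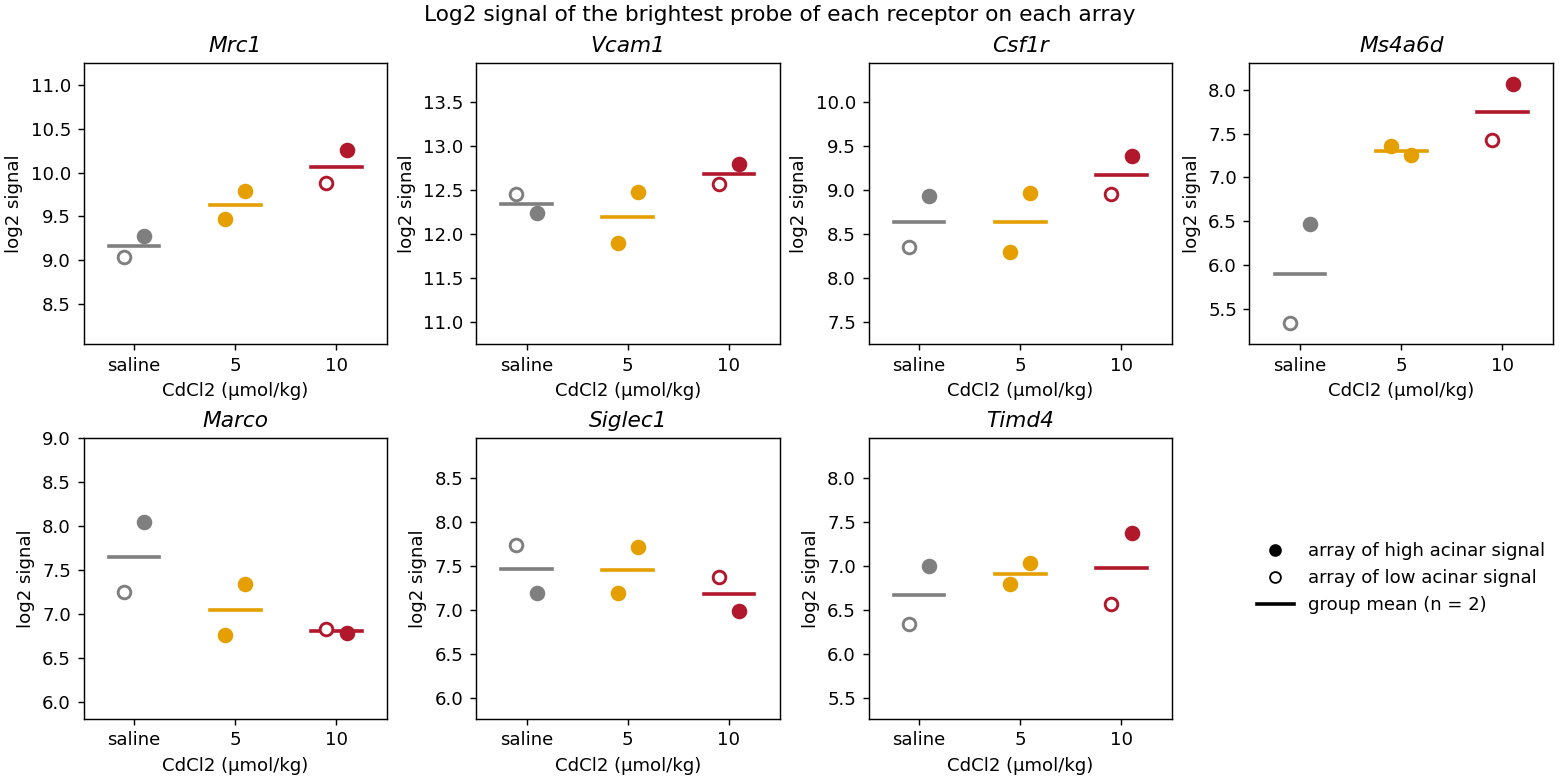
Normalised log2 level of the brightest probe of the 7 measured receptors on each of the 6 arrays, by group (saline, 5 and 10 µmol/kg CdCl2), with the group mean as a line; filled points are arrays of high acinar signal and open points the 2 arrays of low acinar signal. Mrc1 and Ms4a6d have 3 groups that do not overlap, the 2 Marco arrays at 10 µmol/kg lie below both saline arrays, and Siglec1 and Timd4 overlap throughout.

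By its brighter probe Ms4a6d had the largest measured difference from saline of the 7 receptors at both doses. That probe read 25.02 and 72.79 on the saline arrays, 148 and 137 on the 5 µmol/kg arrays, and 156 and 251 on the 10 µmol/kg arrays. The groups did not overlap and ascended with dose. The saline arrays differed from each other by 1.12 on the log2 scale, more than 91.5% of the features measured on them, so the size of any fold against saline rests on which saline array is used. At 5 µmol/kg the log2 difference from saline was 1.40 ± 0.42 (SE), a fold of 2.63 with a 95% confidence interval from 1.32 to 5.24. Its unadjusted p was 0.013 and its adjusted p 0.525 (limma), so the difference did not pass the test. It was 0.84 without saline array 1 and 1.96 without saline array 2. The 10 µmol/kg arrays exceeded those at 5 µmol/kg by 0.44 ± 0.42 (limma, adjusted p = 0.981), by 0.12 without 10 µmol/kg array 2 and by 0.76 without 10 µmol/kg array 1. Between 10 µmol/kg and saline the log2 difference was 1.84, a fold of 3.57, with 2.08 between the arrays of low acinar signal and 1.59 between those of high acinar signal.

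The second Ms4a6d probe was near background. It read 6.57 and 3.95 on the saline arrays, neither of them detected, 13.6 and 24.3 at 5 µmol/kg, and 18.5 and 21.2 at 10 µmol/kg. Since saline then has only a bound, set by the lowest detected signal of each array, the folds are given as minima. By group means they were at least 1.33 at 5 µmol/kg and 1.37 at 10 µmol/kg, without allowance for spread between arrays. Fitted without that bound, the fold of 5 µmol/kg over saline was 1.46 (limma over every probe, adjusted p = 0.494). Its confidence interval ran from 0.964 to 2.22 and so included no difference. Both probes thus placed every cadmium array above every saline array, while the second probe did not separate the doses, with a log2 difference of 0.045 ± 0.25 between 10 and 5 µmol/kg.

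Csf1r, the CSF-1 receptor, had probes that differed at 5 µmol/kg. The brighter read 311 and 472 on the saline arrays, 300 and 484 on the 5 µmol/kg arrays, and 483 and 657 on the 10 µmol/kg arrays. The 5 µmol/kg and saline arrays spanned almost the same range, with a log2 difference of −0.0063 ± 0.35 (limma, adjusted p = 0.996) and an interval of 0.562 to 1.76-fold. The dimmer probe read 93.2 and 60.9 on the saline arrays, 130 and 134 at 5 µmol/kg, and 148 and 210 at 10 µmol/kg. There the 3 groups did not overlap, and 5 µmol/kg exceeded saline by 0.69 ± 0.29 on the log2 scale (limma over every probe, unadjusted p = 0.0497, adjusted p = 0.492). Between 10 and 5 µmol/kg the log2 difference was 0.54 ± 0.35 on the brighter probe (limma, adjusted p = 0.981) and 0.38 ± 0.29 on the dimmer (limma over every probe, adjusted p = 0.98). Between 10 µmol/kg and saline the probes differed by 0.54 and 1.08 on the log2 scale, in the same direction. Leaving out 1 array at a time, the brighter probe gave −0.34 to 0.33 for 5 µmol/kg against saline, 0.21 to 0.88 for 10 against 5 µmol/kg and 0.25 to 0.83 for 10 µmol/kg against saline. On the brighter probe this difference was 0.61 between the arrays of low acinar signal and 0.46 between those of high acinar signal, and on the dimmer 0.59 and 1.56.

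**Figure D2:**
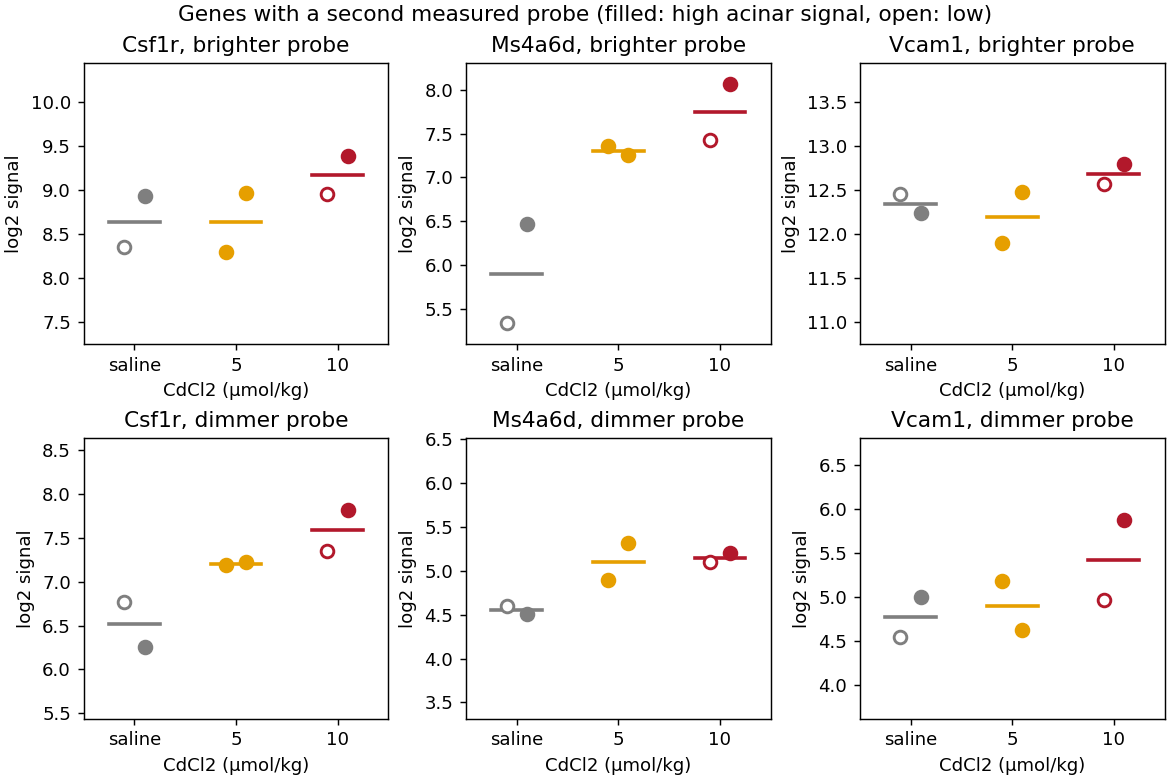
Normalised log2 level on each array for both detected probes of Ms4a6d, Csf1r and Vcam1, by group; each panel has its own scale and no probe's level is set against another's. The dimmer Csf1r probe separates 5 µmol/kg from saline where the brighter one does not, and both Ms4a6d probes have every cadmium array above both saline arrays.

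Marco, the marginal zone scavenger receptor, stood lowest at 10 µmol/kg. Its signal was 136 and 249 on the saline arrays, 92.7 and 146 on the 5 µmol/kg arrays, and 98.2 and 94.0 on the 10 µmol/kg arrays. One 5 µmol/kg array lay below all the others and the other above the lower saline array, so those groups overlapped, while both 10 µmol/kg arrays lay below both saline arrays. The log2 means were 7.65 ± 0.57, 7.05 ± 0.41 and 6.80 ± 0.039 for saline, 5 and 10 µmol/kg (SD, n = 2 each). The difference of 5 µmol/kg from saline was −0.60 ± 0.35 (SE), a fold of 0.66 with a 95% confidence interval from 0.372 to 1.17 (limma, adjusted p = 0.566). It was −1.001 without saline array 1 and −0.20 without saline array 2, which is the higher of the pair. Between 10 and 5 µmol/kg the difference was −0.24 ± 0.35 (limma, adjusted p = 0.981), and without 5 µmol/kg array 2 it was 0.044. Between 10 µmol/kg and saline the log2 difference was −0.84, a fold of 0.558, with −0.41 between the arrays of low acinar signal and −1.27 between those of high acinar signal. Without saline array 2 it was −0.44 and without saline array 1 it was −1.25.

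Siglec1 and Timd4 overlapped in all 3 groups. The sialoadhesin gene Siglec1 read 197 and 131 on the saline arrays, 131 and 194 on the 5 µmol/kg arrays, and 151 and 111 on the 10 µmol/kg arrays. Its log2 difference was −0.0086 ± 0.32 for 5 µmol/kg against saline (limma, adjusted p = 0.994) and −0.27 ± 0.32 for 10 against 5 µmol/kg (limma, adjusted p = 0.981), with intervals of 0.588 to 1.68-fold and 0.489 to 1.40-fold. The phosphatidylserine receptor gene Timd4 read 65.7 and 112 on the saline arrays, 95.4 and 115 on the 5 µmol/kg arrays, and 79.5 and 151 on the 10 µmol/kg arrays. In saline and at 10 µmol/kg the array of low acinar signal was the lower of the pair. Its log2 differences were 0.24 ± 0.36 for 5 µmol/kg against saline (limma, adjusted p = 0.819) and 0.062 ± 0.36 for 10 against 5 µmol/kg (limma, adjusted p = 0.995), with intervals of 0.648 to 2.16-fold and 0.572 to 1.91-fold. For both genes these intervals allow differences as large as the one measured for Mrc1 at 5 µmol/kg. Between 10 µmol/kg and saline, Siglec1 differed by −0.28 on the log2 scale, with −0.36 between the arrays of low and −0.21 between those of high acinar signal, and by −0.013 without saline array 1. In the same contrast Timd4 differed by 0.30, with 0.23 between the arrays of low and 0.38 between those of high acinar signal. The Timd4 difference turned to −0.022 without saline array 1 and to −0.098 without 10 µmol/kg array 2.

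Msr1 was measured by 2 probes, and neither was detected on any array. The signal of the first lay between 5.51 and 9.84, with detection p-values of 0.0566 to 0.118, and that of the second between −4.35 and 1.58. Both were not well above background at any dose, so no direction is given for this scavenger receptor.

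**Figure D3:**
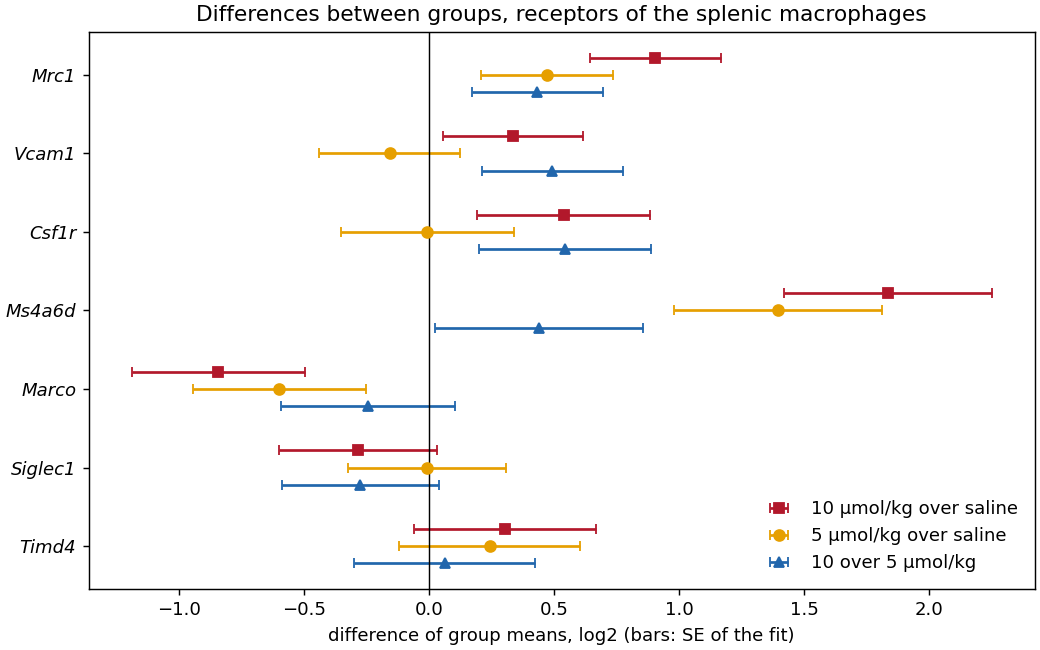
Log2 difference of the brightest probe of each measured receptor for 5 µmol/kg against saline, 10 against 5 µmol/kg and 10 µmol/kg against saline, with standard errors as bars; the last contrast chose the genes and is drawn as a description. Ms4a6d lies farthest above 0 against saline at 1.40 and 1.84, and Marco lies below 0 in each comparison.

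Mrc1 and Marco can be set against each other only as a change between arrays, since probes differ in brightness for the same RNA. The log2 level of Mrc1 minus that of Marco, taken relative to its saline mean, was 0.28 and −0.28 on the saline arrays, 1.20 and 0.94 on the 5 µmol/kg arrays, and 1.53 and 1.96 on the 10 µmol/kg arrays. The 3 groups did not overlap, and both saline arrays lay below all 4 cadmium arrays. In 10 µmol/kg spleens the ratio was 3.36 times that in saline spleens, and in 5 µmol/kg spleens 2.10 times that in saline spleens. The pair was selected on this opposition, so these values are a description.

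**Figure D4:**
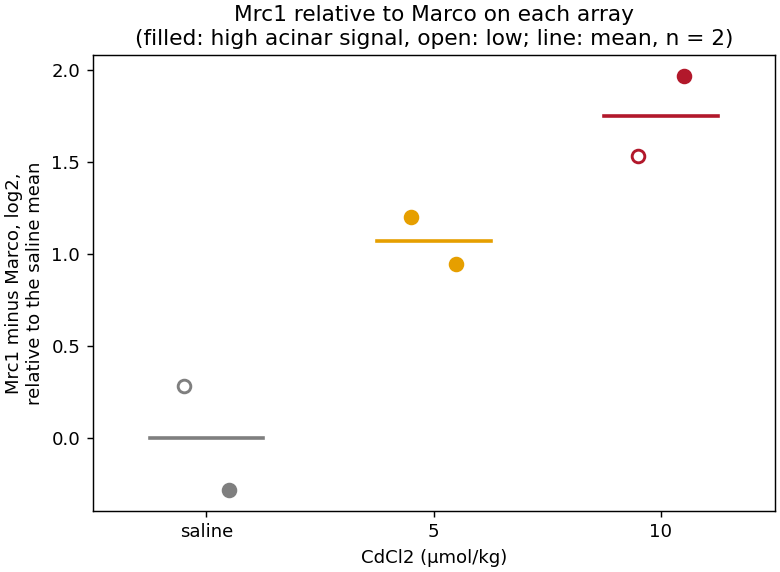
Log2 level of Mrc1 minus that of Marco on each array, relative to the saline mean of that difference, by group, with group means as lines, filled points for high and open points for low acinar signal. The points lie at 0.28 and −0.28 on saline arrays, 1.20 and 0.94 at 5 µmol/kg and 1.53 and 1.96 at 10 µmol/kg.

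Counted over the 7 measured receptors by the brightest probe of each, 3 had a positive and 4 a negative difference at 5 µmol/kg against saline, with a median of −0.0063 against −0.013 over all 13559 features. The members' arrays did not overlap for 2 that were higher, Mrc1 and Ms4a6d, and for 0 that were lower, where 21.8% of all features were higher and 25.2% lower without overlap. By those probes only Ms4a6d had an unadjusted p under 0.05, which 9.27% of all features (1257) had, and 0 members passed after Benjamini-Hochberg adjustment, as did 0.0% of all features. A share of 1 in 7 is near that background. For 10 against 5 µmol/kg, 5 differences were positive and 2 negative, with a median of 0.43 against 0.0053 over all features. Mrc1, Vcam1 and Ms4a6d, 3 of the 7, were higher without overlap against 15.2% of all features, and 0 were lower against 15.7%. In that comparison 0 members had an unadjusted p under 0.05, against 0.959% of all features (130), and 0 passed after adjustment, as did 0.0% of all features. Both comparisons share arrays with the contrast that chose the members. With the mean acinar level as a covariate, the difference of 5 µmol/kg from saline was 0.36 for Mrc1, 1.04 for Ms4a6d and −0.74 for Marco, and that of 10 from 5 µmol/kg was 0.56 for Mrc1, 0.83 for Ms4a6d and −0.085 for Marco.

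For 10 µmol/kg against saline, Mrc1, Vcam1, Ms4a6d and Csf1r were higher without overlap, where 11.0% of all features were, and Marco was lower without overlap, where 11.5% were. Nothing is read from these counts, because this contrast chose the genes. Over all features 221 had an unadjusted p under 0.05 there and 0.0% passed after adjustment. By the brightest probe, Mrc1 and Ms4a6d were the 2 members whose 3 groups ascended with dose without overlap, an order that 61 features (0.45%) showed, and 0 members descended, against 60 features (0.443%). The dimmer Csf1r probe also ascended, and the dimmer Ms4a6d probe did not. Either order includes the step from saline to 10 µmol/kg, which chose the genes, so nothing is read from these shares either. With 2 arrays a group, an exact permutation test of a single gene cannot give a p below 0.333 (two-sided), so no such test is reported.

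Other genes of the red pulp macrophage were mostly on the positive side at the higher dose. The list held 25 entries, of which 22 were measured and 1 is an older name of Slc40a1. At 10 against 5 µmol/kg, 21 of the 22 had a positive difference with a median of 0.33, which leaving out 1 array moved between 0.21 without 5 µmol/kg array 1 and 0.53 without 5 µmol/kg array 2. Of the 22, 12 were higher without overlap, where 15.2% of all features were, and 0 lower. At 5 µmol/kg against saline, 17 of 22 were positive with a median of 0.24, which became −0.0056 without saline array 1, where 11 were positive. At 10 µmol/kg against saline, 21 of 22 were positive with a median of 0.59. That median was 0.56 between the arrays of low acinar signal and 0.64 between those of high acinar signal. It was 0.31 without saline array 1, 0.32 without 10 µmol/kg array 2 and at most 0.78 with another array left out. In each comparison 0 of the 22 passed after adjustment (limma). The list was drawn up with earlier results of these arrays known and several of its genes are also in the scavenger receptor list.

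Within that list, C1qb, a chain of the complement component C1q, had log2 levels of 9.74 and 9.91 on the saline arrays, 10.35 and 10.41 on the 5 µmol/kg arrays, and 10.87 and 11.09 on the 10 µmol/kg arrays. Its groups ascended without overlap, by 0.56 ± 0.23 for 5 µmol/kg against saline (limma, unadjusted p = 0.0462, adjusted p = 0.525). The step from 5 to 10 µmol/kg was 0.60 ± 0.23 (limma, unadjusted p = 0.0355, adjusted p = 0.981). Trf, which encodes transferrin, the iron carrier of plasma, had 8.63 and 8.55 on the saline arrays, 9.39 and 9.74 at 5 µmol/kg, and 9.70 and 10.39 at 10 µmol/kg. For Trf the difference of 5 µmol/kg from saline was 0.97 ± 0.30 (limma, adjusted p = 0.525). The most abundant signals of the list were those of Slc40a1, the iron exporter ferroportin, and Fcna, the lectin ficolin-A. At 5 µmol/kg against saline their log2 differences were −0.057 and 0.21, and at 10 µmol/kg against saline 0.25 and 0.69.

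The list of marginal zone macrophages and their niche showed no such side. It also held genes of B cells and stroma and some genes near background, so its medians do not stand for the macrophages alone. Of 22 genes 19 were measured, and 8 differences were positive at 5 µmol/kg against saline, 9 at 10 against 5 µmol/kg and 9 at 10 µmol/kg against saline, with medians of −0.042, −0.013 and −0.030. Each median lay on both sides of 0 as arrays were left out 1 at a time, from −0.23 to 0.081, from −0.15 to 0.16 and from −0.18 to 0.048. Among them Cr2, the complement receptor of follicular and marginal zone B cells, was detected on the saline arrays only. By group means it was at least 1.30-fold lower at 5 µmol/kg than in saline and at least 1.33-fold lower at 10 µmol/kg. For Cr2 the unadjusted p at 5 µmol/kg was 0.0305 and the adjusted p 0.525 (limma). Cr2 passed the filter only through the saline arrays, where it was high, so these values are a description and no test is read from them. In each comparison 0 of the 19 passed after adjustment. Ccl21a, a chemokine of the white pulp stroma, differed by −0.27 at 5 µmol/kg and −0.39 at 10 µmol/kg from saline, and Ltb, which encodes lymphotoxin β, by −0.16 and 0.052. Cd209b, chosen after its values were seen, encodes SIGN-R1, a lectin of the same macrophages as MARCO. Its log2 levels were 7.013 and 9.004 on the saline arrays, 8.42 and 8.58 at 5 µmol/kg, and 7.83 and 9.40 at 10 µmol/kg. Its groups overlapped, and its differences from saline were 0.49 ± 0.73 at 5 µmol/kg and 0.61 ± 0.73 at 10 µmol/kg, on the other side of 0 from Marco.

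**Figure D5:**
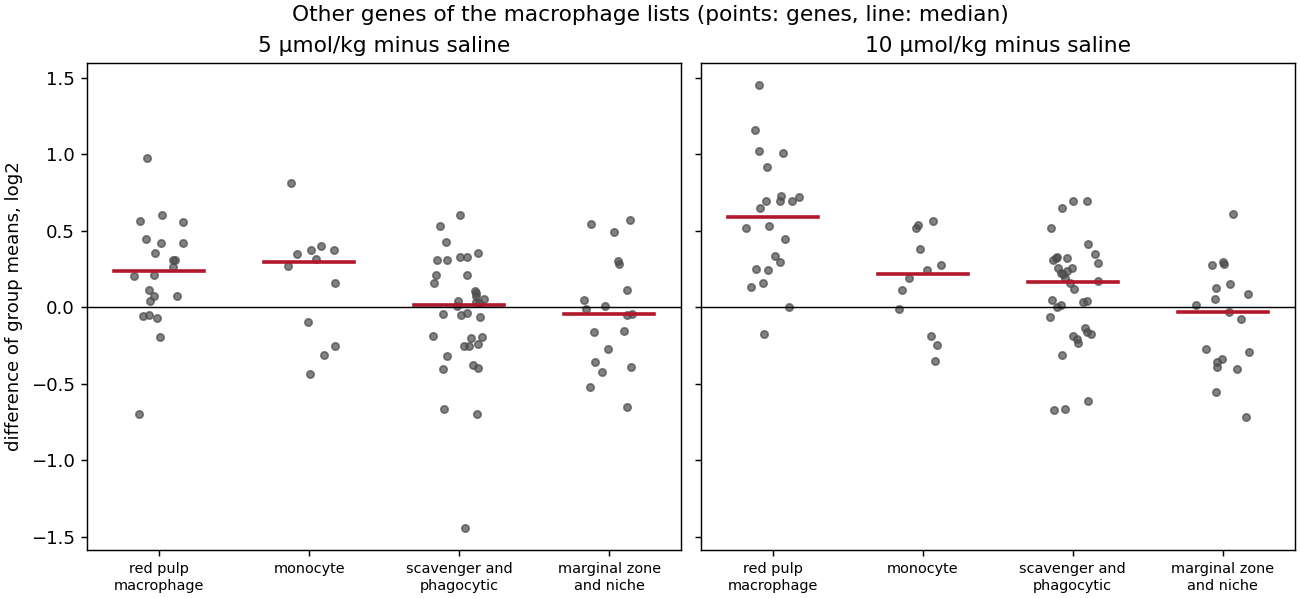
Log2 differences of group means from saline for each measured gene of the red pulp macrophage, monocyte, scavenger and phagocytic receptor, and marginal zone lists, at 5 µmol/kg on the left and 10 µmol/kg on the right, with the list median as a line. At 10 µmol/kg the red pulp macrophage median is 0.59 and the marginal zone median −0.030. The marginal zone list also holds genes of B cells and stroma.

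Most ligands and partners of the receptors had negative differences at the lower dose, and 0 of them passed after adjustment. Of 21 genes 16 were measured, and 4 differences were positive at 5 µmol/kg against saline, with a median of −0.31, against 11 positive and a median of 0.27 at 10 against 5 µmol/kg. The first median was −0.15 without 5 µmol/kg array 1 and −0.17 without saline array 1, and the second 0.090 without 10 µmol/kg array 1. Csf1, chosen after its values were seen, encodes the growth factor CSF-1 that Csf1r binds. It had log2 levels of 6.039 and 5.999 on the saline arrays, 4.87 and 5.38 at 5 µmol/kg, and 6.12 and 5.43 at 10 µmol/kg, and 5 µmol/kg differed from saline by −0.89 ± 0.32 (limma, adjusted p = 0.525). Il34, which encodes the other ligand of that receptor, differed by −0.17 ± 0.34 at 5 µmol/kg (limma, adjusted p = 0.869). Spic, the gene of the red pulp factor Spi-C, read 8.40 and 8.13 on the saline arrays, 8.63 and 8.79 at 5 µmol/kg, and 8.94 and 9.04 at 10 µmol/kg. Its groups ascended without overlap, with a difference of 0.44 ± 0.23 for 5 µmol/kg against saline (limma, adjusted p = 0.543). The macrophage transcription factor list as a whole had 11 of 21 positive at 5 µmol/kg and 12 at 10 µmol/kg against saline, with medians of 0.058 and 0.013. With 1 array left out these ran from −0.21 to 0.0093 and from −0.19 to 0.28, so the list gave no settled direction. Il34 and Spic were also named after their values were seen.

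The lists of the wider receptor families were divided between higher and lower signals, and 0 of their genes passed after adjustment (limma). The scavenger and phagocytic receptor list also held proteins that bridge such receptors to their targets. Of its 36 measured genes, 19 were positive at 5 µmol/kg and 24 at 10 µmol/kg against saline. The medians were 0.016 and 0.16, which ran from −0.12 to 0.064 and from 0.12 to 0.23 with 1 array left out. In that list Mfge8, a bridge between dying cells and integrins, differed from saline by −0.40 at 5 µmol/kg and −0.62 at 10 µmol/kg, and Axl, a receptor tyrosine kinase for dying cells, by −0.20 and 0.16. Itgav, the integrin αV gene, was not detected at 5 µmol/kg, and by group means was at least 2.39-fold lower there than in saline. The fitted log2 difference was −1.44 ± 0.47 (limma, unadjusted p = 0.02, adjusted p = 0.525). Its log2 levels were 6.49 and 5.54 on the saline arrays and 5.95 and 4.75 at 10 µmol/kg. In both pairs the array of low acinar signal was the higher, so the size of the fold rests on which saline array is used. Itgb5, the gene of the β5 chain that pairs with αV, differed by 0.65 for 10 against 5 µmol/kg (limma, adjusted p = 0.981). Of the 6 measured Ms4a genes other than Ms4a6d, 4 were positive in both comparisons with saline, and 3 at 10 µmol/kg without 10 µmol/kg array 2. Ms4a3, a gene of neutrophil precursors, differed by 1.74 ± 0.40 at 5 µmol/kg (limma, adjusted p = 0.525), and Ms4a7, a macrophage gene, by 0.59 ± 0.39 (limma, unadjusted p = 0.176). Of the 7 measured genes of the Siglec list, 3 were positive at 5 µmol/kg and 1 at 10 µmol/kg. The medians were −0.31 and −0.36, which ran from −0.68 to −0.16 and from −0.72 to −0.16 with 1 array left out. That list also held genes that do not encode Siglecs, and it shared genes with the B cell and monocyte lists.

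Markers of other cells that carry some of these receptors were measured beside them. Of 12 monocyte genes 8 were positive at both doses against saline, with medians of 0.29 and 0.22. The median at 10 µmol/kg turned to −0.050 without 10 µmol/kg array 2 and was −0.083 between the arrays of low acinar signal, with 5 of 12 positive in each case, and the median at 5 µmol/kg was 0.14 without 5 µmol/kg array 2. Among these Plac8 differed from saline by 0.32 and Chil3 by 0.38 at 5 µmol/kg, and by 0.27 and −0.25 at 10 µmol/kg. Endothelial and stromal cells also make Vcam1, and the means of their 24 measured genes spanned 6.73 to 7.11 on the log2 scale over the 6 arrays, with medians of −0.069 and −0.0070 against saline that ran from −0.28 to 0.016 and from −0.11 to 0.043 with 1 array left out. Of 15 measured neutrophil genes, 11 were positive at 5 µmol/kg with a median of 0.40, and 0.26 without 5 µmol/kg array 2. Of 10 measured B cell genes 1 was positive with a median of −0.48, against 3 positive with −0.18 without saline array 1 and 3 with −0.20 without 5 µmol/kg array 1. Of 16 lysosome and macrophage cytoplasm genes, 8 were positive at 5 µmol/kg and their median was −0.024, with −0.12 to 0.080 as arrays were left out. Among genes of dendritic cells 2 of 11, of T cells 5 of 10, of erythroid cells 8 of 12 and of adipose and mesothelial cells 2 of 5 were positive at 5 µmol/kg. With 1 array left out these counts ran from 1 to 5, 4 to 6, 6 to 8 and 1 to 3. The part of any of these cells in the receptors' values was not tested.

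The genes whose levels over the 6 arrays lay closest to those of Mrc1, after each gene's own mean was taken off, were Slc45a3, Pira2 and Dstn, with mean absolute differences of 0.077, 0.095 and 0.11 on the log2 scale. For Marco they were Gpt, Plxdc1 and Atp5k, with 0.078, 0.094 and 0.14. The search covered 10519 genes over arrays that share all 6 libraries, and closeness in so few arrays is a description only.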

How the data were processed

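RNA of whole spleen had been extracted with Trizol and column-cleaned, then biotin-labelled for Illumina bead arrays according to the labels' protocols, with 1 array a sample. The authors deposited a mean bead intensity on a linear scale for each of 45281 probes, and a detection p-value against negative controls. Their table was described as not normalized, but intensities reached −20.15 and, once sorted, differed between arrays by no more than 0.243, so background subtraction and quantile normalization had preceded deposit, with software not given in the sources used here. For all 45279 probes of the deposited series matrix the intensity was the same (relative tolerance 1e-06).

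The neqc function of limma 3.58.1 (R 4.3.3) corrected background with an offset of 16, normalised by quantiles and took log2; the offset understates folds of dim genes. A probe entered (18960 did) if 2 or more arrays had its detection p-value below 0.05. Symbols came from the platform annotation (34885 probes with 1, 18 with several, 10378 with none), 34807 were found in RefSeq, and the brightest probe stood for a gene (13559 features). Groups came from the sample titles. One limma fit of 3 group means to 6 arrays, with 3 residual and 3.639 prior degrees of freedom, gave moderated tests with Benjamini-Hochberg adjustment over all features (threshold 0.05). The number of arrays limits the precision. The fit was also run on simulated data with independent noise. Those data held no acinar difference between arrays, so that run does not cover such differences.

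Named genes were all members, the 2 brightest and up to 3 of smallest p under 0.05 in the red pulp, marginal zone, monocyte, scavenger and Ms4a lists, the 3 genes closest to Mrc1 and to Marco, and those said to be chosen after their values were seen. Members, lists and acinar groups were chosen with earlier results of these data known. Alternatives changed the offset, normalization, filter, probe rule, eBayes prior, arrays, an acinar covariate and a replicate block.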

Additional observations from a re-analysis of the deposited data

How the results depend on the processing

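In the comparisons of 5 µmol/kg with saline and of 10 with 5 µmol/kg, 0 receptors passed the adjusted threshold under any of the 18 alternatives. Of 378 member differences, 363 kept their sign and 15 changed it. Many could not change, so this count is no measure of robustness. The filter, probe rule, prior, series matrix values, replicate block and arrays of the third group left each member difference as it was. With only the arrays of high acinar signal, 287 genes passed for 5 µmol/kg against saline and 308 for 10 µmol/kg against saline, in a fit whose 1 residual degree of freedom comes from the 5 µmol/kg arrays. With every probe tested, 1 passed for 10 against 5 µmol/kg, Tmem14c, named after its values were seen. Under the other alternatives 0 genes passed. Genes at an unadjusted p under 0.05 numbered 161 to 2355, 35 to 1271 and 96 to 2132 over the alternatives for 5 against saline, 10 against 5 and 10 against saline. At 5 µmol/kg against saline, Siglec1 became 0.19 with the acinar covariate and 0.26 on high acinar arrays, and Timd4 −0.042 and −0.084. Leaving out 1 array at a time gave ranges across 0: for 5 µmol/kg against saline −0.45 to 0.13 for Vcam1, −0.28 to 0.26 for Siglec1, −0.34 to 0.33 for Csf1r and −0.084 to 0.57 for Timd4, and for 10 against 5 µmol/kg −0.53 to 0.044 for Marco and −0.34 to 0.47 for Timd4, and for 10 µmol/kg against saline −0.098 to 0.71 for Timd4. The replicate block gave 0 genes in each comparison, with 1433, 160 and 207 at an unadjusted p under 0.05 (limma). Deviations of same-numbered arrays correlated at −0.276 between saline and 5 µmol/kg, 0.579 between saline and 10 µmol/kg and −0.109 between the doses. Array 1 of saline and array 1 of 10 µmol/kg are also the arrays of low acinar signal. The causes were not tested. Low signal limits Msr1 and the dim probes of Ms4a6d and Vcam1.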
